A study of Mus musculus with 12 samples.

Results

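The miR-132 and miR-212 cluster is a pair of neighbouring microRNA genes, each of which gives a 5p and a 3p mature arm. Its members were chosen by name alone: mmu-miR-132-3p, mmu-miR-212-3p and mmu-miR-212-5p, with mmu-miR-132-5p added because it was also listed (the prefix for mouse is left out below). That made 4 rows of the 932 in the deposited table. The table holds small RNA libraries of heart mitochondria from 6 wild-type (WT) and 6 db/db samples. db/db mice carry a defective leptin receptor, overeat, and develop obesity and diabetes. The samples share the heart as tissue and the mitochondrial fraction, and the labels do not state their age, sex or strain. The labels number the samples 1 to 6 in each genotype without stating that each came from a separate mouse, so p-values here refer to the spread among the libraries, part or all of which could be technical.

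MicroRNAs act as short guides: the bases near the 5′ end, called the seed, pair with messenger RNAs and lower their stability or translation. miR-132 and miR-212 are processed from the same primary transcript, which the transcription factor CREB induces in neurons. In heart muscle cells they are known to promote hypertrophic growth, with the transcription factor FoxO3, a brake on growth and an activator of autophagy, as a described target. The fraction sequenced here was mitochondrial, and no other fraction of the heart was among the libraries, so where in the cell these microRNAs were located was not tested.

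All 4 members matched a RefSeq mature sequence (build GRCm38.p6). The mature arms are shown because the seeds (bases 2 to 8, in capitals, 5′ to 3′) decide which members can be read as 1 targeting group.
miR-132-3p: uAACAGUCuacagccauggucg
miR-212-3p: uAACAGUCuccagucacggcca
miR-132-5p: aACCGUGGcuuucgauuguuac
miR-212-5p: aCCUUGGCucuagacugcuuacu
The 3p arms carried the same seed, and the 5p arms carried seeds of their own. No further mature mouse microRNA in the RefSeq table had a seed of a member. The 3p arms were identical at 17 of 22 positions, with the first 9 bases the same. Counted from the 5′ end, with the base of miR-132-3p first, they differed by A10C, C14U, U17C, U20C and G22A. No other row of the deposited table had the same values as a member in all libraries.

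The hairpins are shown to place the arms, which are in capitals.
Mir212: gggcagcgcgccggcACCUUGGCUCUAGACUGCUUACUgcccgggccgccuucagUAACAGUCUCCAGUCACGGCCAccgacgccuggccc
Mir132: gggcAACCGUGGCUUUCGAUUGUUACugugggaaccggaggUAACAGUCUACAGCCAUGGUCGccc
In GRCm38.p6, Mir212 lies at chr11:75173388-75173478 and Mir132 at chr11:75173682-75173747, both on the plus strand, with 203 bases between them. GENCODE M21 places both in intron 1 of the noncoding gene 1700016P03Rik, which has 3 exons and the same strand. The submitters' processing notes name GRCm39, so these positions hold only for GRCm38.p6. The Mir212 hairpin was the more GC-rich, at 69.2% against 57.6% for Mir132.

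Values were in RPM, each library's reads scaled to a common sum of 1000000 over all listed rows. Library totals, recovered from the values, ranged from 412749 to 1382046 reads, so 1 read was worth 0.724 to 2.42 RPM. WT library 4 and db/db library 6 were the shallowest, at 551591 and 412749 reads, and gave the largest part of them to rows without a microRNA name. Muscle microRNAs dominated both genotypes: the fixed cardiomyocyte markers, among them miR-133a-3p and miR-1a-3p, summed to 367380 to 421300 RPM in WT and 338730 to 440050 RPM in db/db libraries.

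None of the 4 arms differed between db/db and WT past the threshold. The 3p arms, which share the seed, had lower means in db/db libraries, and the 5p arms had higher means. miR-132-3p was the most abundant arm, followed by miR-212-5p, miR-132-5p and miR-212-3p. The differences were tested with limma on log2(RPM + 1) over the 646 rows that averaged 1 RPM or more, a filter that all 4 passed, with Benjamini-Hochberg adjustment and a threshold of 0.05. Of all rows tested, 0.155% passed, 0.155% as lower and 0.0% as higher, and 0 of the 4 members did. By edgeR on the recovered reads 0.464% of rows passed, with 0 of the members among them. By DESeq2 4.71% of the 170 rows with an adjusted p passed; of the members only miR-132-3p had one, and it did not pass. The RPM ranges of the genotypes did not overlap in 0.929% of rows and in 0 of the 4 members. At an unadjusted p under 0.05 the share was 8.98% of rows, and 1 of the 4 members, miR-212-5p, was among them. Fold changes below are on the log2(RPM + 1) scale, which at low counts weighs libraries at 0 heavily.

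miR-132-3p, the guide strand through which the cluster is best known in heart, averaged 85.7 RPM over the 12 libraries and ranked 163 among the 730 rows with a microRNA name. In WT libraries 1 to 6 it stood at 97.6, 129, 46.2, 125, 106 and 98.8 RPM. In db/db libraries 1 to 6 it stood at 81.2, 59.4, 59.6, 60.7, 82.5 and 82.4 RPM. The WT mean was 101 ± 29.8 RPM and the db/db mean 71.0 ± 12.1 RPM (SD, n = 6 each). Every db/db library was under the median of WT, but the genotypes overlapped because WT library 3 was the lowest of all 12. The log2 fold change was -0.44 ± 0.32 (SE), with a 95% interval from -1.09 to 0.20 (limma adjusted p = 0.717).

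WT library 3 had 37 reads of miR-132-3p, and the 95% Poisson interval of its level ran from 32.5 to 63.7 RPM. This interval did not reach the lowest bound of any other WT library, which was 75.2 RPM in WT library 1. Such intervals describe only the error of counting, as copies made by PCR do not count as separate molecules. WT library 3 was not among the shallow ones, with 801118 reads in all. Without it, a choice made after the values were seen, the other 5 WT libraries averaged 111 ± 14.9 RPM and none of them was below 97.6 RPM, while no db/db library was above 82.5 RPM. The genotypes then did not overlap, as in 1.25% of the rows tested without that library. That share leaves WT library 3 out of each row, not the library that made the row overlap. It therefore does not measure how rare such a separation is. The log2 fold change became -0.65 ± 0.32 (SE; limma adjusted p = 0.549), which still missed the threshold.

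miR-212-3p, which carries the seed of miR-132-3p, was the scarcest arm, with 1 to 19 reads per library and a mean of 12.0 RPM. In WT libraries 1 to 6 it stood at 1.53, 30.0, 4.99, 18.1, 17.7 and 19.3 RPM. In db/db libraries 1 to 6 it stood at 6.88, 11.1, 6.47, 19.4, 6.51 and 2.42 RPM. The genotypes overlapped widely, although 5 of the 6 db/db libraries were under the median of WT. The WT mean was 15.3 ± 10.4 RPM, against 8.79 ± 5.87 RPM for db/db (SD, n = 6 each). The log2 fold change was -0.53 ± 0.81 (SE), with a 95% interval from -2.14 to 1.08 (limma adjusted p = 0.789). The direction was poorly determined, although the sign was the same in 27 of 28 other fits. With 1 library left out the value ran from -0.99 to -0.26. The exception was among libraries numbered 1 to 3 alone, at 0.20 ± 1.34, a value far smaller than its SE. Among those numbered 4 to 6 it was -1.26 ± 1.15 (SE, limma adjusted p = 0.981 and 0.770). The labels name no batch for these numbers, and the split was chosen with earlier results of these data known.

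Together, as the pool of molecules with the shared seed, miR-132-3p and miR-212-3p had a summed level of 116 ± 37.9 RPM in WT, against 79.7 ± 9.53 RPM in db/db (SD, n = 6 each). The sum ranged from 51.2 RPM in WT library 3 to 159 RPM in WT library 2, and from 66.0 to 89.0 RPM in db/db libraries. miR-132-3p held 75.8 to 98.5% of that sum in the 12 libraries, so miR-212-3p was the smaller part in each. The spread was wider in WT, where both the lowest and the highest sums lay.

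miR-212-5p had the largest fold change of the 4 arms on the log2(RPM + 1) scale, but the smallest by the ratio of the mean RPM and by edgeR. In WT libraries 1 to 6 it stood at 88.5, 28.4, 0, 0, 24.9 and 47.7 RPM. In db/db libraries 1 to 6 it stood at 44.0, 20.7, 59.6, 16.8, 20.3 and 94.5 RPM. It was read in every db/db library and in 4 of the 6 WT libraries, and above 0 the ranges of the genotypes overlapped nearly completely. A count of 0 still allows up to 3 reads as a one-sided limit, or 3.74 RPM in WT library 3 and 5.44 RPM in WT library 4. The two-sided 95% Poisson intervals, used for the other levels and in the plot of levels by library, reach 4.60 and 6.69 RPM there.

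The mean of miR-212-5p was 31.6 ± 33.3 RPM in WT, against 42.6 ± 30.4 RPM in db/db (SD, n = 6 each); the ratio of the means was 1.35. On the log2(RPM + 1) scale the difference was 1.56 ± 0.75 (SE), with a 95% interval from 0.06 to 3.05 (limma adjusted p = 0.543). The log2 ratio of the means was 0.43, against -0.80 for miR-212-3p, 0.71 for miR-132-5p and -0.50 for miR-132-3p. edgeR on the recovered reads gave 0.40 (edgeR adjusted p = 0.798). Without WT library 3 the limma value fell to 0.83 ± 0.67, and without WT library 4 to 0.83 ± 0.65 (SE; limma adjusted p = 0.709 and 0.689). The size of this fold change therefore rested on the libraries at 0. Its SE, and whether the interval held 0, also depended on how the variance was modelled. Without an abundance trend in the variance the same 1.56 had an SE of 1.14 (limma unadjusted p = 0.199). Among rows of at least 10 RPM the SE was 0.98, and with a replicate block 0.69 (limma unadjusted p = 0.127 and 0.0298).

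miR-132-5p, the lesser arm of miR-132, also had WT libraries at 0 and stood at a lower mean level. In WT libraries 1 to 6 it stood at 0, 25.3, 4.99, 0, 22.9 and 19.3 RPM. In db/db libraries 1 to 6 it stood at 30.3, 2.76, 10.4, 25.8, 10.1 and 38.8 RPM. The zeros were in WT libraries 1 and 4, and db/db library 2, with 2 reads, was close to them. WT library 4 was at 0 for miR-212-5p too, while WT library 1 held the highest WT level of miR-212-5p, 88.5 RPM. The WT mean of miR-132-5p was 12.1 ± 11.7 RPM, against 19.7 ± 14.0 RPM for db/db (SD, n = 6 each). On either side of the median of WT lay 3 db/db libraries. The log2 fold change of miR-132-5p was 1.28 ± 0.87 (SE), with a 95% interval from -0.46 to 3.03 (limma adjusted p = 0.717). It fell to 0.74 ± 0.82 without WT library 4 and to 0.74 ± 0.83 without WT library 1 (SE; limma adjusted p = 0.689 and 0.709), and edgeR gave 0.67 (edgeR adjusted p = 0.764).

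**Figure D1:**
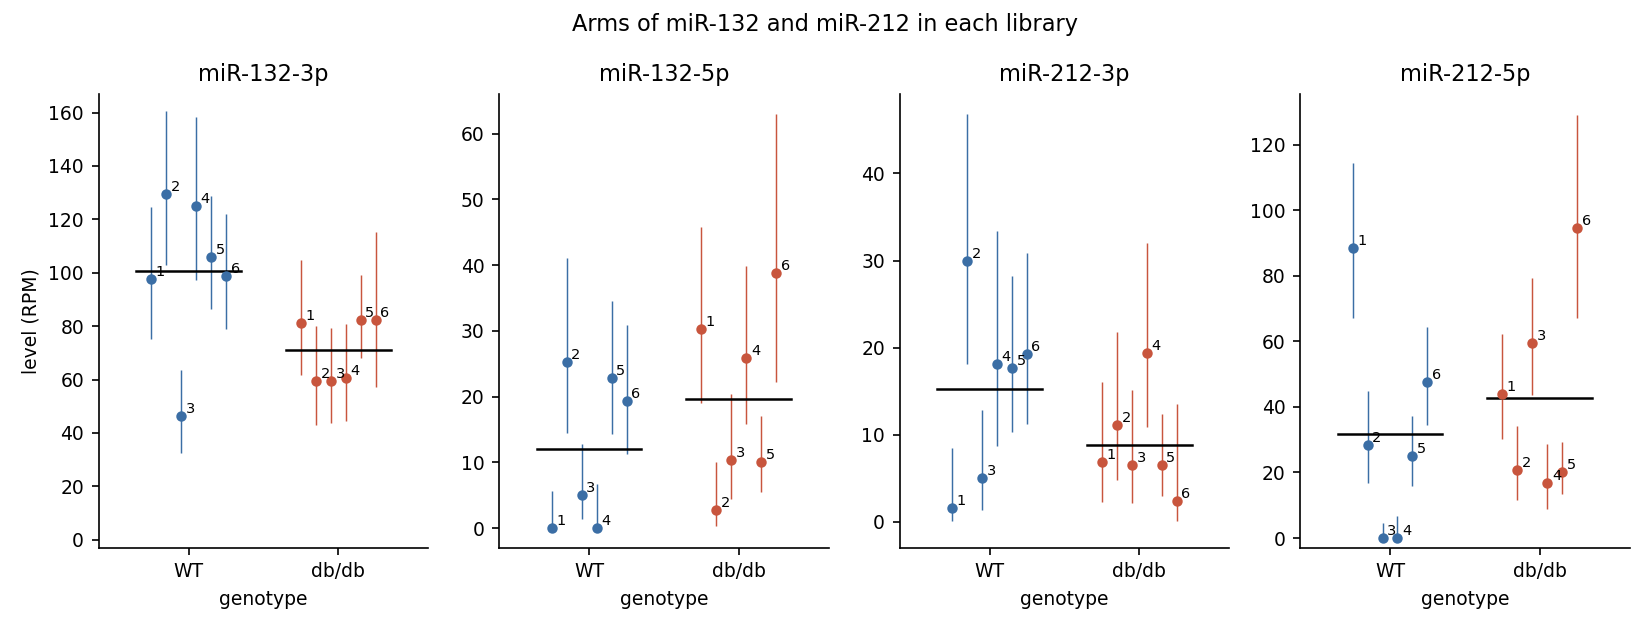
Level of each arm in RPM (y axes, linear, a scale for each panel) in the 12 libraries by genotype (x axis); points carry the library number, thin bars are 95% Poisson intervals of the reads and black lines are genotype means. miR-132-3p is lower in all 6 db/db libraries than in 5 of the 6 WT libraries, and the 5p arms include WT libraries at 0.

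The sign of the fold change kept to 1 side of 0 for miR-132-3p, miR-132-5p and miR-212-5p in all 28 other fits run, while the size for the 5p arms depended on the pseudocount. With 0.1 RPM added in place of 1 RPM, miR-212-5p stood at 2.64 and miR-132-5p at 2.33, and with 10 RPM added they stood at 0.61 and 0.48 (log2 fold change). miR-132-3p, which was read in all libraries, stood between -0.65 and -0.34 under every setting. The lowest adjusted p over these settings was 0.444 for miR-132-3p, 0.576 for miR-132-5p, 0.673 for miR-212-3p and 0.233 for miR-212-5p (limma or edgeR; DESeq2 gave an adjusted p for miR-132-3p alone).

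**Figure D2:**
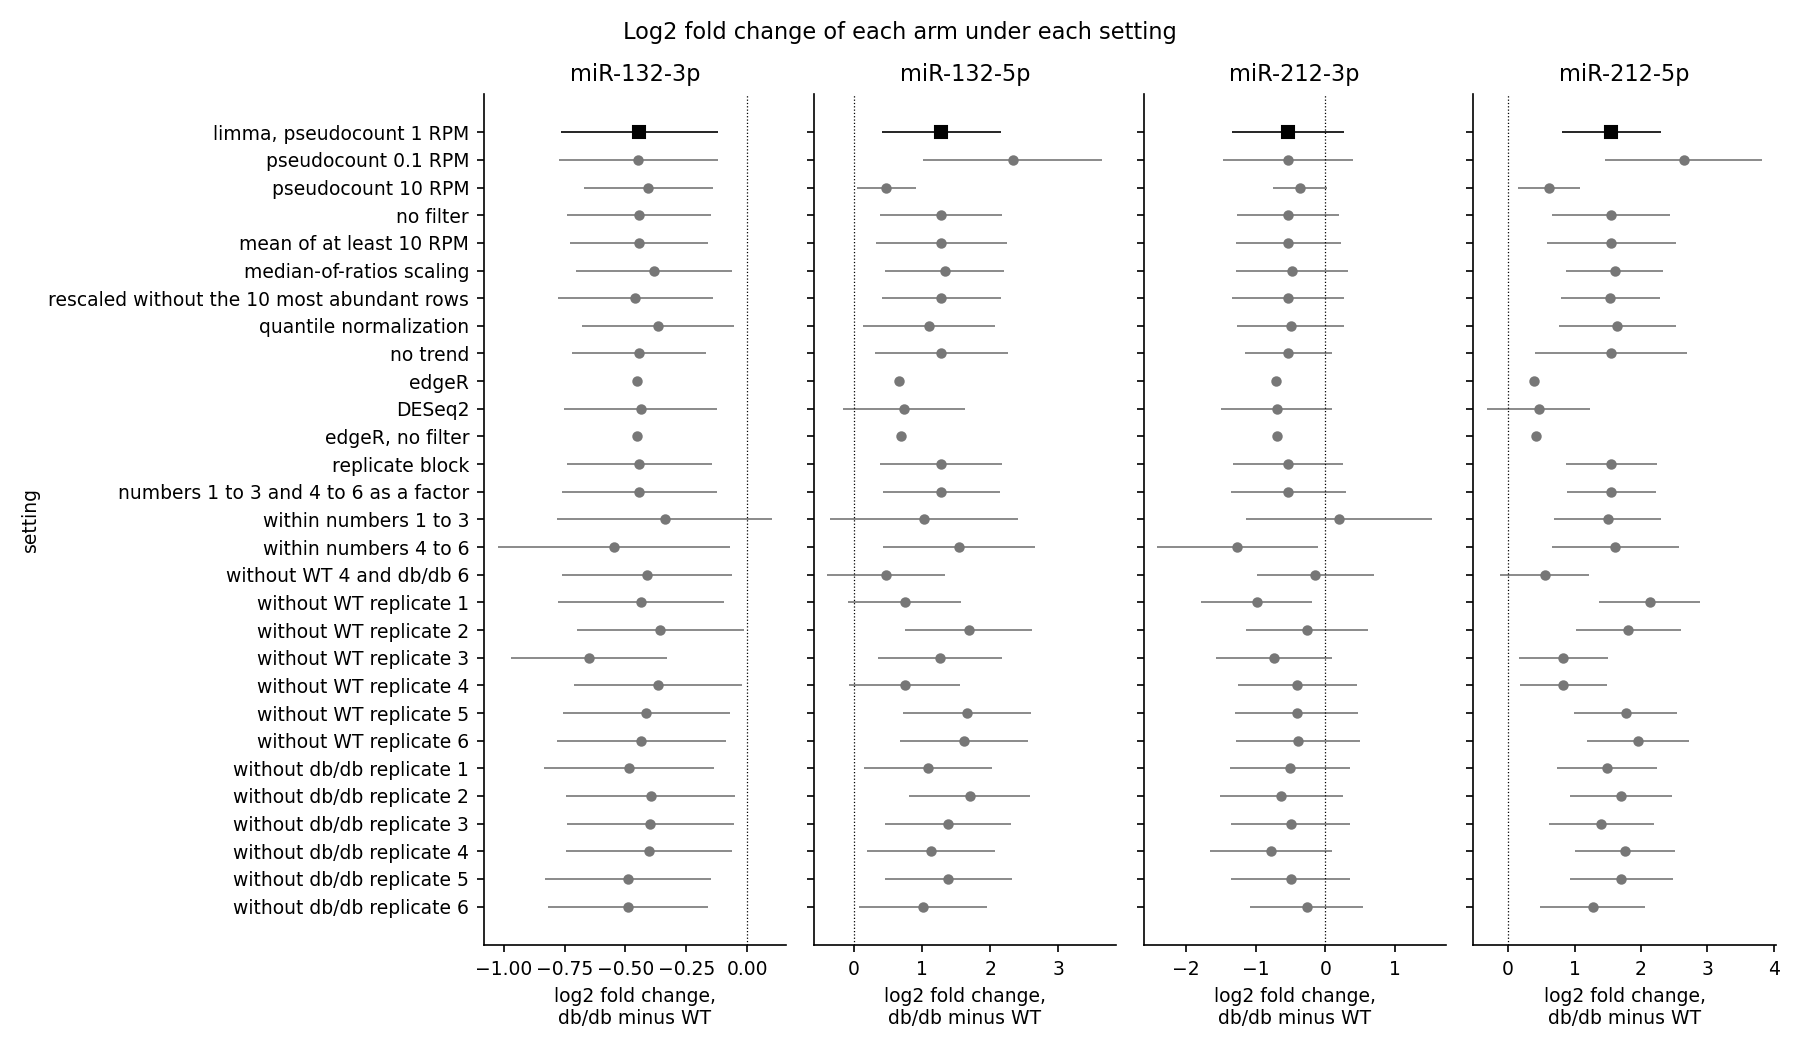
Log2 fold change of each arm, db/db minus WT (x axes, a scale for each panel), under each setting (y axis); bars are 1 SE, absent for edgeR, and the square is the limma fit with 1 RPM added. Values of miR-132-3p stay between -0.65 and -0.34, those of the 5p arms shrink under edgeR, DESeq2 and a pseudocount of 10 RPM, and miR-212-3p crosses 0 within numbers 1 to 3.

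The balance of arms differed between the neighbouring hairpins. In miR-132 the 3p arm prevailed in every library: the 5p arm held 0 to 17.7% of the reads of both arms in WT and 4.44 to 32.0% in db/db libraries. In miR-212 the 5p arm prevailed in 8 of 12 libraries, all but WT libraries 2, 3 and 4 and db/db library 4. Over the summed reads of each genotype the 5p arm held 67.6% of 210 reads of miR-212 in WT and 80.1% of 216 reads in db/db libraries. The same share for miR-132 was 11.8% of 500 reads in WT and 19.3% of 425 reads in db/db libraries.

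The 5p share of miR-212 moved between nearly all and none of the reads. In WT libraries 1 to 6 it was 98.3, 48.6, 0, 0, 58.5 and 71.2%, and in db/db libraries 1 to 6 it was 86.5, 65.2, 90.2, 46.4, 75.7 and 97.5%. WT library 1 had 58 reads of the 5p arm and 1 of the 3p arm, with 90.9% as the lower bound of the exact (Clopper-Pearson) 95% interval of the share. WT library 4 had 0 reads of the 5p arm and 10 of the 3p arm, an interval from 0 to 30.9%. These intervals do not overlap, although both libraries are WT. WT library 3 had only 4 reads of miR-212 in all, so its share was poorly determined (0 to 60.2%).

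The mean 5p share of miR-212 was 46.1% ± 39.4 in WT, against 76.9% ± 18.8 in db/db (SD, n = 6 each), and the ranges overlapped. Without WT library 4 and db/db library 6, the shallowest, the difference of the means fell from 30.8 to 17.5 percentage points. As a description, the SD of the share over all 12 libraries was 33.5 percentage points for miR-212 and 10.8 for miR-132. Among 48 other hairpins with both arms listed, reads in every library and a combined mean of 20 to 200 RPM, the median SD was 9.81 and the highest 34.9 percentage points. Only 1 of these 48, miR-511, had an SD as large as that of miR-212, while 21 had an SD at least as large as that of miR-132. The SD takes no account of depth. By a chi-square per degree of freedom of the share over libraries, which does, miR-212 stood at 9.91 against a median of 4.98, and 5 of the 48 were at or above it.

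**Figure D3:**
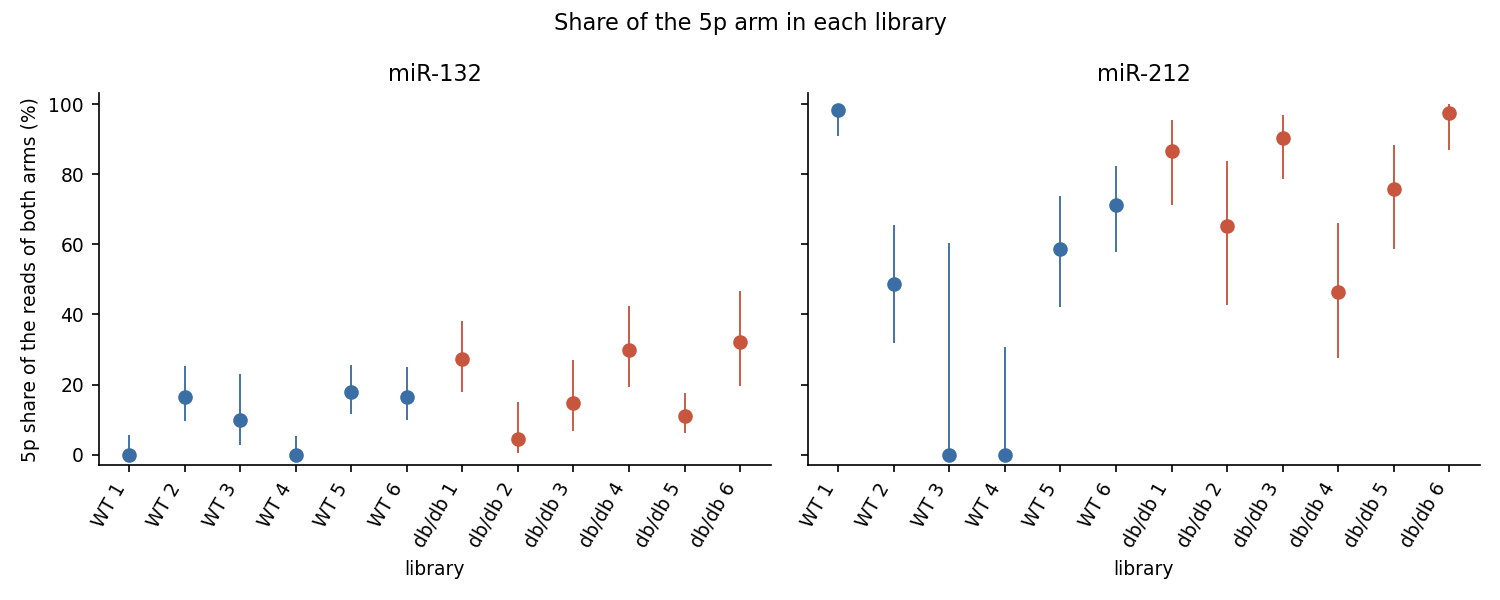
Share of the 5p arm in the reads of both arms (y axes, percent) of miR-132 and miR-212 in each library (x axes); bars are exact 95% binomial intervals, blue is WT and red db/db. The share stays at or below 32.0% for miR-132 and runs from 0 to 98.3% for miR-212.

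The spread between libraries of a genotype was compared with what counting noise alone would give, as a chi-square per degree of freedom against 1 rate per genotype, for which counting noise gives about 1. It was 4.12 for miR-132-3p, 3.79 for miR-212-3p, 7.32 for miR-132-5p and 19.3 for miR-212-5p. Each arm thus varied by more than counting noise gives, as did most rows of the table. Among the 67 other rows within 2-fold of the mean of miR-132-3p the median was 8.16, and 65 of them were at or above its value. Among the 78 rows within 2-fold of the mean of miR-212-5p the median was 7.76, and 3 were at or above its value. miR-132-3p was thus among the steadier rows of its abundance and miR-212-5p among the more variable.

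**Figure D4:**
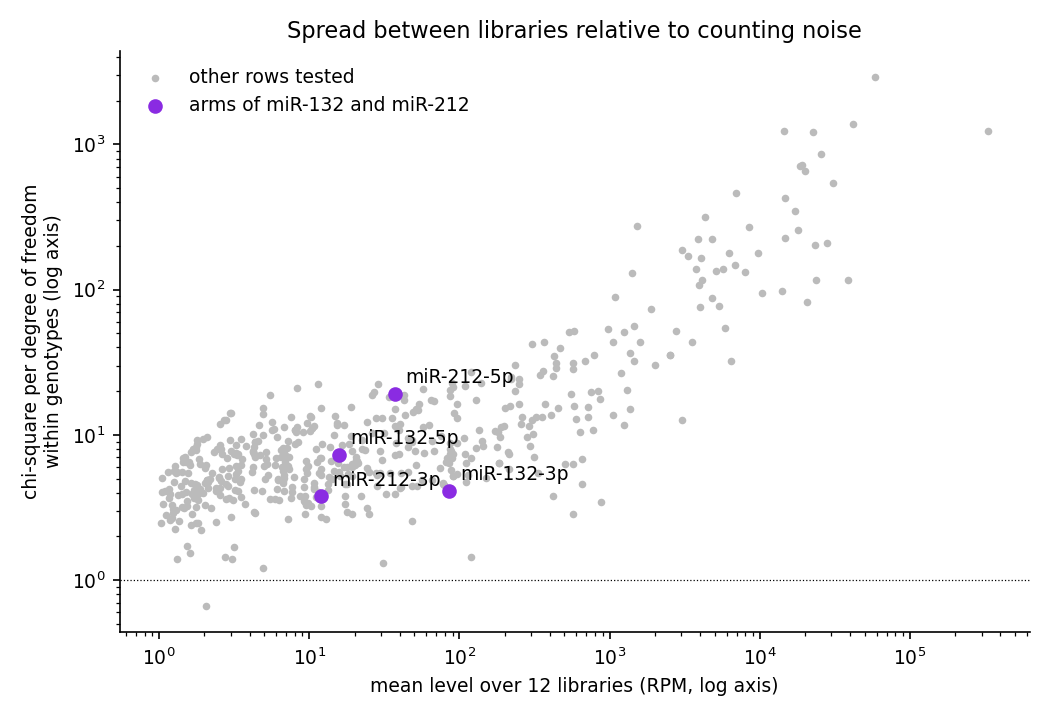
Chi-square per degree of freedom within genotypes (y axis, log) against mean level in RPM (x axis, log) for the rows tested that had reads in both genotypes; the dotted line marks counting noise alone. The arms of miR-132 and miR-212 run from 3.79 for miR-212-3p to 19.3 for miR-212-5p.

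No pair of arms rose and fell together across libraries past the threshold. Over the 6 pairs of members and 12 libraries, on log2(RPM + 1), Pearson's r ran from -0.271, between the arms of miR-212, to 0.428, between the 5p arms (permutation tests, two-sided; lowest adjusted p = 0.645). Between the 3p arms, r was 0.345 and Spearman's rho 0.448 (permutation p = 0.271 and 0.149, adjusted p = 0.645 and 0.548). Without the 2 libraries farthest from the median of miR-132-3p, r fell to 0.0828. Leaving out the extremes of 1 arm narrows its range, which can itself lower r. The fall therefore does not show that the relation rested on those libraries. Within WT libraries r between the 3p arms was 0.533 and within db/db libraries -0.667 (n = 6 each). The strongest value within a genotype was between the arms of miR-212, with r at -0.846 in db/db and -0.0679 in WT libraries (n = 6 each). These values within a genotype were not tested.

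Among 146 named rows that averaged 100 RPM or more, those whose pattern was most like that of miR-132-3p, after subtracting genotype means, were miR-361-5p (Spearman's rho 0.671), miR-25-3p (0.587), miR-15b-5p (0.580), miR-378a-3p (0.580) and miR-374b-5p (0.559), over 12 libraries. Without that subtraction the closest were miR-30e-3p (0.783) and miR-378a-3p (0.776), the microRNA of the Ppargc1b intron. These values are the highest of 146 candidates and describe libraries that share a scaling to the same total.

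Of 15 other microRNAs described as promoting cardiac hypertrophy, all tested, 1 passed as lower, 0 passed as higher, and 9 were below 0. The median log2 fold change of the list was -0.23, against -0.04 over all 646 rows. Of all 646 rows, 338 were below 0. The called member was miR-22-3p, an abundant microRNA of muscle, with means of 17708 ± 3699 RPM for WT and 11882 ± 1677 RPM for db/db (SD, n = 6 each). Its difference was -0.56 ± 0.13 on the log2 scale (SE; limma adjusted p = 0.0466), a call lost in 7 of the 12 fits without 1 library (highest limma adjusted p = 0.311). The most abundant of the list were miR-24-3p and miR-23a-3p, which can be made from 1 transcript; miR-24-3p stood at -0.36 ± 0.12 and miR-23a-3p at -0.23 ± 0.12 (SE, on the log2 scale; limma adjusted p = 0.198 and 0.575). miR-195a-5p, which shares its seed with miR-15 and miR-16, stood at -0.62 ± 0.18 (SE; limma adjusted p = 0.109).

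Of 11 listed microRNAs described as restraining hypertrophy, 0 passed, 6 had positive and 5 negative values, and the median log2 fold change was 0.02. The most abundant of them were miR-133a-3p, at 0.07 ± 0.11, and miR-1a-3p, at -0.25 ± 0.14 (SE, on the log2 scale; limma adjusted p = 0.789 and 0.716). miR-98-5p, of the let-7 family, and miR-133b-3p, a muscle microRNA, had the smallest p of the list, at -0.73 ± 0.32 and -0.29 ± 0.15 (SE, on the log2 scale; limma adjusted p = 0.504 and 0.600). At an unadjusted p under 0.05 there were 7 of the 15 and 1 of the 11, against 8.98% of all rows tested. Of the 7, miR-214-3p and miR-221-3p were above 0, at 0.45 and 0.38 on the log2 scale, and the rest below. Most rows tested were scarcer and less precisely measured than those listed, so 8.98% is not a like background. Rows of like abundance were not compared.

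Among markers of the cell types of heart and blood, 0 passed. Of the 5 smooth muscle and fibroblast markers, 3 were below 0 with the list's median at -0.33 on the log2 scale, and 4 were at an unadjusted p under 0.05. miR-143-3p stood at -0.48 ± 0.13, miR-145a-5p at -0.33 ± 0.14, miR-199a-5p at -0.36 ± 0.18 and miR-214-3p, which is also in the hypertrophy list, at 0.45 ± 0.22 (SE, on the log2 scale). The remaining marker, miR-199a-3p, is also in the hypertrophy list and stood at 0.06 ± 0.14 (SE, on the log2 scale). It averaged 2533 RPM, against 866 RPM for the other arm, miR-199a-5p. The summed level of the 5 markers was 33897 to 47321 RPM in WT, against 24559 to 39198 RPM in db/db. The myeloid miR-223-3p stood at -0.72 ± 0.22, the endothelial miR-126a-3p at -0.30 ± 0.14 and the cardiomyocyte miR-208a-3p, also in the hypertrophy list, at -1.34 ± 0.55 (SE, on the log2 scale; limma adjusted p = 0.109, 0.504 and 0.504). The other arm, miR-208a-5p, averaged 594 RPM, against 49.1 RPM for miR-208a-3p, and stood at only -0.16 ± 0.19 (SE, on the log2 scale; limma adjusted p = 0.724). Negative values were found in 2 of 4 leukocyte, 2 of 3 endothelial, 4 of 5 cardiomyocyte and 1 of 3 erythroid markers, against 338 of all 646 rows. Above 0 were the leukocyte miR-150-5p at 0.20 ± 0.16 and miR-142a-5p at 0.16 ± 0.40. So were the endothelial miR-139-5p at 0.08 ± 0.16 and the cardiomyocyte miR-133a-3p at 0.07 ± 0.11 (SE, on the log2 scale). miR-150-5p averaged 3883 RPM, against 307 RPM for miR-223-3p, and miR-133a-3p was the most abundant cardiomyocyte marker. The cardiomyocyte miR-499-5p, at -0.26 ± 0.16, is also in the hypertrophy list. The part of these cell types in the values of the hypertrophy list or of the cluster was not tested.

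Since neurons also make miR-132 and miR-212, markers of nervous tissue were read in the same libraries. The 8 neural microRNAs summed to 651 to 763 RPM in WT and 759 to 984 RPM in db/db libraries, and 0 of 8 passed. The sum says little of the scarcer members. The fitted fold change was below 0 for 6 of the 8, against 338 of all 646 rows tested, and the median over the 8 was -0.37 on the log2 scale. Each of these 6 averaged about 10 RPM or less, so their direction was poorly determined. Most of the sum was miR-128-3p, which heart also expresses, with means of 580 ± 57.8 RPM for WT and 736 ± 77.6 RPM for db/db (SD, n = 6 each; limma adjusted p = 0.575). miR-9-5p, of neural progenitors and neurons, stood at 71.1 ± 30.1 RPM for WT and 91.3 ± 22.8 RPM for db/db (SD, n = 6 each; limma adjusted p = 0.717). The neuron-restricted miR-124-3p averaged 10.2 RPM, with means of 6.24 RPM for WT and 14.2 RPM for db/db, and was at 0 in 3 libraries. Its fitted fold change was -0.01 ± 1.04 (SE, on the log2 scale), with no clear direction. miR-137-3p and miR-219a-5p, both below 0 in the fit, were at 0 in 8 and 11 of the 12 libraries. Also negative were miR-9-3p at -0.70 ± 1.02, miR-129-5p at -1.07 ± 0.97 and miR-138-5p at -0.38 ± 1.04 (SE, on the log2 scale), each averaging under 10 RPM. The part of neural cells in the values of the cluster was not tested. In bulk samples, fewer cells of a type and less RNA per cell cannot be told apart.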

How the data were processed

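Small RNA from heart mitochondria of 6 WT and 6 db/db samples was read from 1 table. The labels' protocols describe adapter ligation, reverse transcription, PCR and gel purification. The authors deposited RPM values, reads scaled to a column sum of 1000000, under the name TPM: 100% of values were whole multiples of 1 read (within 0.01 of a read), with no length term. Per the submitters' processing notes the genome was GRCm39; which aligner and annotation were used is not given in the sources used for this work.

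limma 3.58.1 (R 4.3.3, abundance trend, no replicate block, two-sided) was fitted to log2(RPM + 1) for the 646 rows that averaged 1 RPM or more. edgeR 4.0.16 and DESeq2 1.42.0 on recovered reads, pseudocounts, filters, scalings, a replicate block, number groupings and left-out libraries were alternatives. The limma fit was tested on simulated data with the same dispersion for all rows. The condition it had to meet covered only large changes in rows of at least 100 RPM, so it does not extend to the arms studied here. Members, lists and alternatives were chosen with earlier results of these data known. Named microRNAs were the members, the 5 rows most like miR-132-3p among those averaging 100 RPM or more, and the called, 2 most abundant and 2 lowest-p members of the hypertrophy and neural lists. Other named microRNAs, such as miR-511 and the remaining markers, were chosen after their values were seen. Precision is limited by 12 libraries of 412749 to 1382046 reads. Correlations used 100000 permutations. Plots were made in Python 3.11.15 with matplotlib 3.10.9.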

Additional observations from a re-analysis of the deposited data

Results flagged for a closer look

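Values of the 4 arms, the 5p share of miR-212, the sum of the 3p arms and the ratio of miR-132-3p to miR-212-3p were searched in each genotype for a library far from the other 5. Of 14 groups of 6 values, 2 stood out, against a nominal rate of about 1 in 20, or 0.7 here. That rate makes no allowance for ratios over few reads. The sum, the share and the ratio were also built from the same arms, so the groups were not independent and the rate is only a rough guide. Both were the ratio of miR-132-3p to miR-212-3p. It was 64.0 in WT library 1 and at most 9.25 in the other WT libraries, a gap of 0.917 of the range. In db/db it was 34.0 for library 6, and no other reached more than 12.7, a gap of 0.691 of the range. In each of these libraries the ratio rested on 1 read of miR-212-3p, and in both the level of miR-212-5p was the highest of its genotype, at 88.5 and 94.5 RPM.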

How the results depend on the processing

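Calls over all rows numbered 1 in the limma fit reported. They numbered 0 after adding 0.1 or 10 RPM, without any filter, at filters of 10 or 100 RPM, after quantile normalization, without an abundance trend, and without the libraries WT 4 and db/db 6 together. Scaling by median of ratios gave 2 calls, libraries numbered 4 to 6 alone 3, a replicate block 9 and the number grouping (1 to 3, 4 to 6) as a factor 10. The reads gave 3 calls by edgeR, 4 by edgeR without a filter (added after the data were seen) and 8 by DESeq2, which adjusted only 170 rows. Leaving out 1 library gave 0 to 7 calls. No arm of miR-132 or miR-212 passed under any of these. With 1 library left out, the log2 fold change ran from -0.65 to -0.36 for miR-132-3p, 0.74 to 1.70 for miR-132-5p, -0.99 to -0.26 for miR-212-3p and 0.83 to 2.13 for miR-212-5p. miR-212-3p changed sign once, to 0.20 within numbers 1 to 3; the cause was not tested. The difference of the mean 5p share of miR-212 ran from 21.6 to 41.2 percentage points, and was 12.5 from summed reads. The mean ratio of miR-132-3p to miR-212-3p differed by -3.23 (db/db minus WT), with a range from -7.50 to 6.38 with 1 library left out. Of the 12 libraries, leaving out WT 1 alone made it positive; summed reads also gave a positive value, 1.49. At a mean of at least 100 RPM no arm was tested.

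The labels do not say that equal numbers mark a pair. Deviations of same-numbered libraries correlated at -0.05 to 0.12 over rows, and 1 of 6 WT libraries correlated best with its own number. With the replicate block the adjusted limma p of miR-212-5p was 0.350 and that of miR-132-3p 0.696. Depth limits miR-212-3p most, with at most 19 reads in a library.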
